A study of Mus musculus with 8 samples.

Results

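*Sox4*, *Sox11* and *Sox12* are the 3 genes of the SoxC group of Sox transcription factors, and they were taken by symbol from the 28001 features of the deposited tables. They were read in 8 single-cell RNA libraries of mouse forelimbs (10x Genomics 3′ kits, which give each transcript caught in a droplet its own barcode, the unique molecular identifier or UMI). All 8 libraries carried *Hic1* CreERT2/CreERT2 and Rosa26 LSL tdTomato/tdTomato alleles, by the labels for the sorted libraries (strain C57BL/6J) and by the methods of the study for the others, and the dams had received 7.5 mg of tamoxifen at E10. Of these libraries, 6 held sorted tdTomato+ cells, 1 library each of E11.5, E12.5, E13.5 and E14.5 forelimbs, of the E16.5 proximal segment (lower stylopod, upper zeugopod and the elbow between them) and of the E16.5 distal segment (lower zeugopod and autopod), and 2 (whole 1 and whole 2) held lineage-negative cells of the whole limb at E11.5. TdTomato thus marks cells in which the *Hic1* promoter was active around the tamoxifen pulse, and their progeny. Limbs of several embryos were pooled for each sorted library, so animals cannot be told apart, and cells with blood or endothelial surface markers had been removed. With 1 library per sorted group, no test between sorted groups was made, and the intervals given are exact 95% intervals that cover counting error only.

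Sox proteins bind DNA through a high-mobility-group (HMG) box related to that of the testis-determining factor SRY. SoxC proteins are activators of transcription, through a domain at their carboxy end, and their genes are active in progenitors of the neural, mesenchymal and skeletal lineages, often several of them in the same cell. In the limb bud they are known for keeping mesenchymal cells alive and for roles in skeletal patterning, joints and growth plates, where they have been linked to the Tead2 gene of the Hippo pathway and to canonical Wnt signalling.

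All 3 genes lie on minus strands of GRCm38 (GENCODE vM21 annotation). *Sox4* and *Sox11* have 1 transcript each, of a single exon. For *Sox12*, which has 2 transcripts, the single-exon one was used. *Sox4* (ENSMUSG00000076431) lies at chr13:28948919-28953713, *Sox11* (ENSMUSG00000063632) at chr12:27334264-27342574 and *Sox12* (ENSMUSG00000051817) at chr2:152393611-152398063. The 3′ UTR, from which 3′ libraries draw most reads, is 2780 of 4795 bases in *Sox4*, 6957 of 8311 in *Sox11* and 3143 of 4453 in *Sox12*. Reads that lie wholly within a stretch shared by members cannot be assigned by their sequence. The longest run of bases shared by a pair of whole transcripts was 48 (*Sox4* and *Sox11*), 33 (*Sox4* and *Sox12*) and 20 (*Sox11* and *Sox12*), and in the 3′ UTRs alone it was 16, 14 and 15. The lincRNA gene Gm26735 overlaps *Sox4* on the other strand, and it was counted as a gene of its own at 6.88 to 26.3 CPM (a gene's UMIs per 1000000 UMIs of the library).

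The sequences in front of the 3 genes are shown because all 3 genes were lower at E16.5 proximal than at E11.5 (values follow). They are bases 250 to 21 before the start of each gene in RefSeq (GRCm38.p6, minus strand, chr13:28953720-28953949, chr12:27342739-27342968 and chr2:152398067-152398296), and capitals mark CCAAT or its complement ATTGG.
Sox4: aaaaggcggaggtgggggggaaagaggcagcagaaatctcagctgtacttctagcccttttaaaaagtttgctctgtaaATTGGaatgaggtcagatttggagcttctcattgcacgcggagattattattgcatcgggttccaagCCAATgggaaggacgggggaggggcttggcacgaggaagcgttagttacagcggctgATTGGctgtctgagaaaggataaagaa
Sox11: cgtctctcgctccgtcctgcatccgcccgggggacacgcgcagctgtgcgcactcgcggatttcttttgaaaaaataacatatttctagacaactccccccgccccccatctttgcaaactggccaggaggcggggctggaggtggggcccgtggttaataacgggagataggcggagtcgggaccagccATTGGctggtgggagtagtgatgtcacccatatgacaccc
Sox12: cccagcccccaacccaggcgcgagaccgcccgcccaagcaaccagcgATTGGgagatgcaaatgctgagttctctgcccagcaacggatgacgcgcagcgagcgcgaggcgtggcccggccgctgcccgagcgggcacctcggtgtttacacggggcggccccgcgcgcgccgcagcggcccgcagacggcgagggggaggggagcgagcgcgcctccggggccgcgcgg
The GC content was 49.1% in *Sox4*, 59.6% in *Sox11* and 76.1% in *Sox12*, more than that of 38.5%, 71.9% and 96.7% of all promoters. CCAAT, on either strand, was present 3 times in *Sox4* and once each in *Sox11* and *Sox12*, against at least once in 32.1% and at least 2 times in 9.0% of 32531 RefSeq promoters of the same window. The GC box letters GGGCGG were absent in *Sox4*, present 2 times in *Sox11* and 3 times in *Sox12* (9769 of the 32531 promoters), where 2 of the 3 matches overlap each other. The letters CATTCC, the core of Tead sites, were found once in *Sox4*, overlapping a CCAAT match, and in neither of the other genes (11.7% of promoters). TATAAA (11.7% of promoters) and AACAAT, the core of Sox sites (8.9%), were in none of the 3 windows. These matches are letters in a window and no evidence of binding.

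Cells with at least 3000 UMIs and at most 10% mitochondrial UMIs were kept, 53085 of 57469 barcodes, with 3165 to 11109 cells, 31500092 to 234893903 UMIs and a median of 6788 to 18473 UMIs per cell in a library. The v2 kit was used for samples up to E13.5 and the v3 kit for those after it, so stage and kit cannot be told apart between E13.5 and E14.5, nor can stage and segment between E14.5 and E16.5. By the methods of the study, E11.5 and E12.5 limbs were digested with Dispase and later ones with collagenase, Pronase and DNase. Stage and digestion thus cannot be told apart between E12.5 and E13.5, the step to the highest *Sox4* level below. *Hic1* stood at 22.0 to 38.0 CPM in the sorted libraries and at 0.702 and 0.741 CPM in whole 1 and whole 2, and tdTomato at 427 to 1340 CPM against 3.88 and 4.21. The mesenchymal gene *Prrx1* ranged from 201 to 309 CPM over the sorted libraries, below whole 1 (647 CPM) and whole 2 (613 CPM). The summed level of 8 epithelial markers was 54.7 to 124.2 CPM from E11.5 to E14.5, 4054 CPM at E16.5 proximal and 664.6 CPM at E16.5 distal, so the E16.5 proximal library, which is labelled as sorted tdTomato+ cells, held RNA of epithelial markers. Of its cells, 937 (8.43%) fell into epithelial-like clusters, and ratios that rest on it are given below also without them. The study calls epithelial cells of its E16.5 data contaminating and removed them, whereas the main levels here keep them. Any pair of libraries shared at most 48 cell barcodes.

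*Sox11* was the SoxC gene that fell most between E11.5 and E16.5. The E11.5 library had 1108 CPM, E12.5 had 797.5, E13.5 had 648.9, E14.5 had 334.7, the E16.5 proximal library had 103.2 and the distal one 185.2 CPM. Whole 1 and whole 2 had 1001 and 1027 CPM. It fell at each step of the time course, and none of the counting intervals of these libraries overlapped (1096 to 1119 CPM at E11.5, 102.0 to 104.6 CPM at E16.5 proximal, 992.6 to 1010 and 1018 to 1036 CPM in whole 1 and whole 2). The E16.5 proximal level was lower than that of E11.5 by 10.7-fold, a log2 ratio of -3.42 (interval -3.45 to -3.40), when the median of all genes at 10 CPM or more was -0.52.

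*Sox4* first climbed and then fell. From E11.5 (586.3 CPM) it went up through E12.5 (690.7 CPM) to E13.5 (780.7 CPM), and then down through E14.5 (492.4 CPM) to the E16.5 proximal library (186.3 CPM), with 219.0 CPM in the distal one and 460.4 and 412.8 CPM in whole 1 and whole 2. E13.5 was the highest and E16.5 proximal the lowest of the 8 libraries, and again no intervals overlapped. This held also for whole 1 (454.6 to 466.3 CPM) and whole 2 (407.2 to 418.4 CPM), which belong to the same group. Separate intervals therefore do not show that a step exceeds the spread between libraries. The log2 ratio was 0.24 from E11.5 to E12.5 and 0.18 from E12.5 to E13.5, in steps where *Sox11* had -0.47 and -0.30. From E11.5 to E16.5 proximal *Sox4* came down 3.15-fold (log2 ratio -1.65, interval -1.68 to -1.63).

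*Sox12* was counted much less often, with 1425 to 4288 UMIs in a library. E11.5 cells held 49.9 CPM, E12.5 cells 43.4, E13.5 cells 31.4, E14.5 cells 30.5, E16.5 proximal cells 15.8 and E16.5 distal cells 26.9 CPM, beside 48.1 and 53.4 CPM in whole 1 and whole 2. The levels of E13.5 and E14.5 did not differ beyond their counting error (log2 ratio -0.04, interval -0.13 to 0.04), and the sign of this step turned with another scaling (0.18 with TMM). Sorted E11.5 overlapped with both whole limb libraries. The fall to E16.5 proximal was 3.15-fold, a log2 ratio of -1.66 (interval -1.74 to -1.57).

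**Figure D1:**
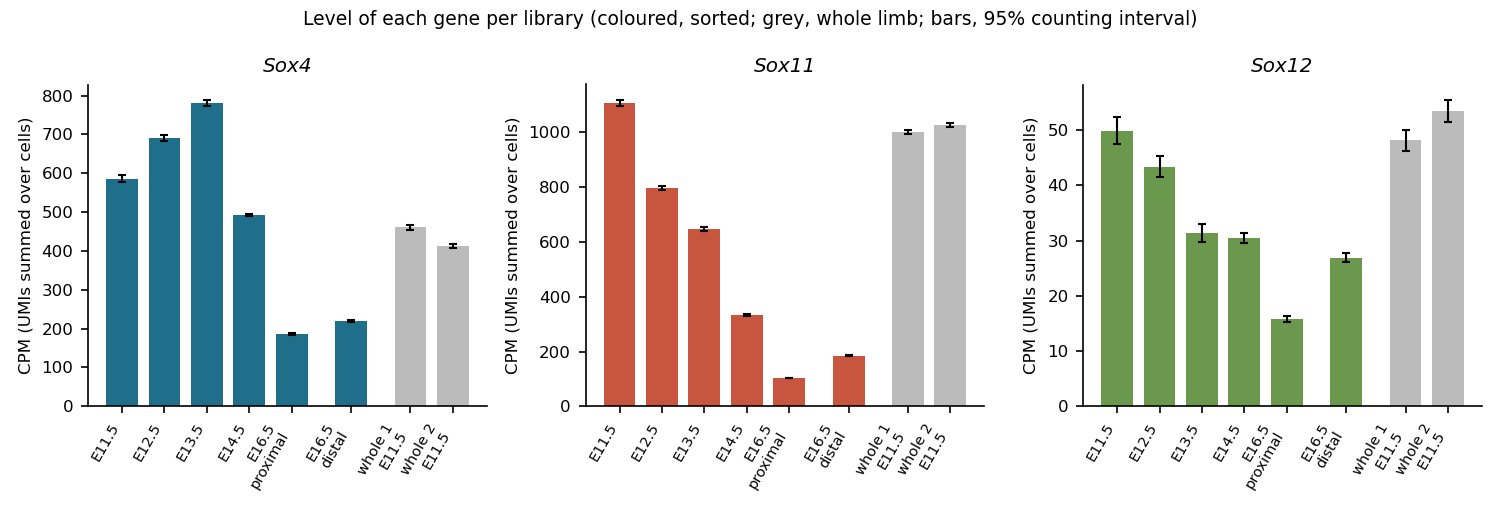
Level of *Sox4*, *Sox11* and *Sox12* in CPM (cells of a library summed) in the 6 sorted libraries (coloured bars) and both whole limb libraries (grey bars), with 95% counting intervals as error bars and a separate axis from 0 for each gene. *Sox11* steps down from 1108 to 103.2 CPM between E11.5 and E16.5 proximal, *Sox4* peaks at 780.7 CPM at E13.5, and all 3 genes are higher in the E16.5 distal than in the proximal bar.

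How common such falls were sets these numbers in context. Counting genes that reached 10 CPM in either library, 1.06% fell at least 2-fold from E11.5 to E12.5, 1.79% from E12.5 to E13.5 and 5.77% from E13.5 to E14.5, and no SoxC gene was among them. From E14.5 to E16.5 proximal 6.94% of genes fell at least 2-fold, *Sox4* (log2 ratio -1.40) and *Sox11* (-1.70) included and *Sox12* (-0.94) just short of it. Over the whole interval from E11.5 to E16.5 proximal 30.3% of genes fell at least 2-fold, the 3 members included, and 11.8% had a lower ratio than *Sox4*, 11.7% than *Sox12* and 0.879% than *Sox11*. Scaling by TMM in place of the total moved the median of all genes up by 0.42 in this ratio and left the members at -1.23 (*Sox4*), -3.0003 (*Sox11*) and -1.23 (*Sox12*). Without the epithelial-like and other non-mesenchymal clusters the ratios were -1.54, -3.21 and -1.48.

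The UMIs of *Sox11* per UMI of *Sox4* changed accordingly. UMI counts at the 3′ end do not scale with transcript length and depend on how each 3′ end is captured, so levels of different genes were not compared, and this ratio is used only for its change between libraries. The ratio at E11.5 was 1.89, and it went to 1.16 (E12.5), 0.831 (E13.5), 0.680 (E14.5) and 0.554 (E16.5 proximal), with 0.846 in the distal segment. Whole 1 and whole 2 had 2.18 and 2.49, above the sorted E11.5 library. It thus came down at each step of the sorted time course. The kit changed between E13.5 and E14.5, so stage and kit cannot be told apart in values from either side of this change. The E16.5 distal value lay closest to that of E13.5, which comes from the other kit.

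To see how many cells contributed, every cell was thinned to 3000 UMIs. In the sorted libraries from E11.5 to E14.5, then E16.5 proximal and last E16.5 distal, *Sox11* had a UMI in 93.6%, 84.3%, 79.2%, 54.8%, 23.2% and 35.1% of the cells. *Sox4* had one in 75.4%, 76.0%, 80.3%, 65.6%, 38.5% and 40.6%, and *Sox12* in 14.2%, 12.3%, 9.08%, 9.08%, 4.56% and 7.81%. At a fixed depth this share moves with the mean level, and a cell without a UMI may still hold the transcript. Unthinned, the shares from E11.5 to E16.5 proximal ran from 99.6% to 59.7% for *Sox11*, from 93.6% to 79.7% for *Sox4* and from 37.2% to 25.9% for *Sox12*. They were higher at E14.5 than at E13.5 for *Sox4* (94.92% and 93.84%) and *Sox12* (36.3% and 20.19%), where the kit and the depth per cell changed. Low shares were seen in a keratinocyte cluster of the E16.5 proximal library led by *Calm4*, *Krt1* and *Ly6d* (601 cells). Its median was 46247 UMIs, against 18473 in the whole library. It held *Sox11* in 1.17%, *Sox4* in 5.16% and *Sox12* in 0.499% of its thinned cells. Whether these UMIs were background or low expression was not tested. The cluster comes from the E16.5 proximal library alone, so its shares set no floor for libraries of another kit and depth. Every library lay above these shares, which does not show levels above background.

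The number of UMIs per cell was tallied for each gene as well. At 3000 UMIs, cells with 3 or more *Sox11* UMIs made up 61.0% of E11.5, 32.8% of E13.5, 13.1% of E14.5 and 1.98% of E16.5 proximal cells. For *Sox4* the corresponding shares were 27.6%, 39.8%, 22.8% and 5.03%. The variance over cells was 1.41 to 2.43 times the mean for *Sox4* and 1.56 to 2.00 times for *Sox11*, more than the 1 that random sampling of equal cells gives. For *Sox12* it was 0.986 to 1.06 times the mean, with the highest value at E16.5 distal. With a *Sox12* mean of only 0.0473 to 0.162 UMIs per cell, this quotient lies near 1 for most spreads between cells. It therefore does not show that cells were more alike in *Sox12* than in the other genes.

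**Figure D2:**
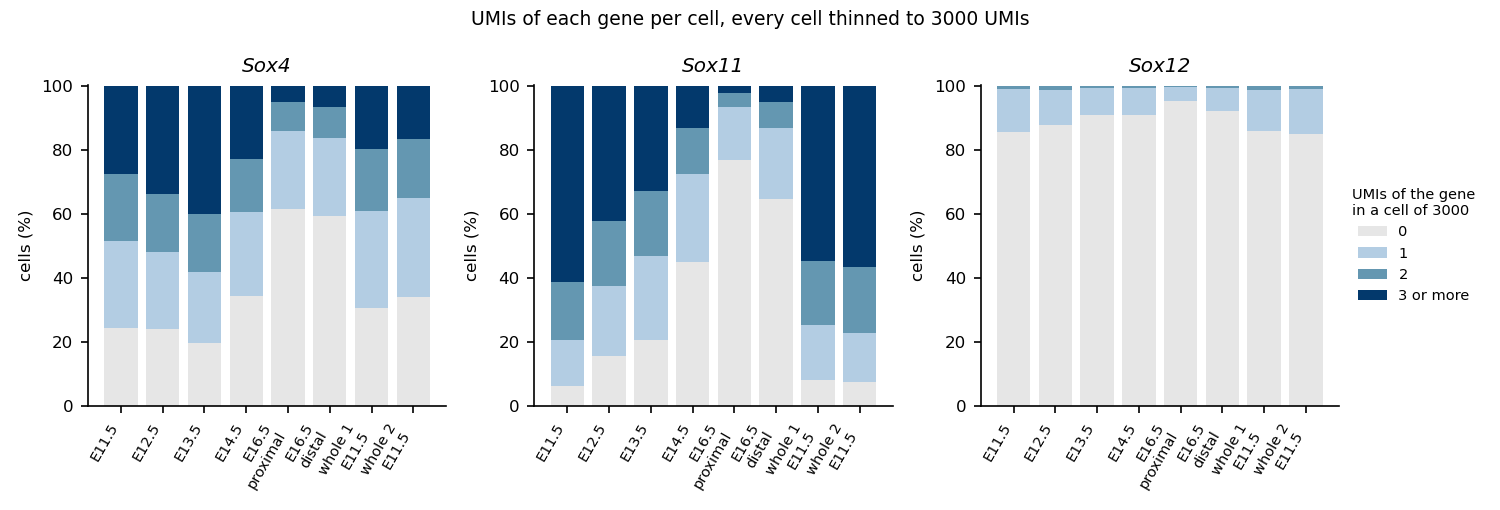
Share of cells (%) with 0, 1, 2 or at least 3 UMIs of each gene in each library, after every cell was thinned to 3000 UMIs. The darkest band, at least 3 UMIs, shrinks for *Sox11* from 61.0% at E11.5 to 1.98% at E16.5 proximal, is widest for *Sox4* at E13.5 (39.8%) and is hardly visible for *Sox12*.

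*Sox4* and *Sox11* were found in the same thinned cells about as often as their separate shares predict at the early stages, and somewhat more often later. In the same order of libraries, the number of cells with both was 2242, 3044, 3951, 3200, 1175 and 1303. Divided by the number under independence this was 1.004, 1.008, 1.015, 1.062, 1.184 and 1.081, and 1.006 in both whole limb libraries. At E16.5 proximal the ratio went from 1.184 to 1.13 when independence was taken within classes of cells rather than over the library. The ratio is bounded by the shares of positive cells. With *Sox11* in 93.55% of E11.5 cells it could hardly exceed 1, and the bound rises as the shares fall at later stages. Its rise over the libraries was therefore partly built in and does not show a closer link of the genes at later stages. Cells without a UMI of any of the 3 genes made up 1.55% of E11.5, 4.67% of E13.5, 16.3% of E14.5, 47.0% of E16.5 proximal and 36.6% of E16.5 distal cells.

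Cells were then grouped into clusters, computed without the SoxC genes and named by marker genes (the ending "-like" is used because no annotation by the authors was at hand). At E11.5 the sorted cells fell into an early mesenchymal progenitor-like and a mitotic-like class, with *Sox4* and *Sox12* somewhat higher in the former. *Sox11* was at 1099 CPM in the progenitor-like and 1116 CPM in the mitotic-like class, *Sox4* at 616 and 557 CPM, and *Sox12* at 54.2 and 45.6 CPM. At E12.5 a perichondrial and osteogenic-like class (706 cells), with markers of the sheath of the cartilage, stood out with 972 CPM of *Sox4* and 1034 CPM of *Sox11*, against 672 and 762 CPM in the progenitor-like and 576 and 794 CPM in the mitotic-like class. More markers of chondrocytes (4) than of the perichondrium (3) were raised in its cluster, which was led by *Wwp2*, *Pxylp1* and *Sox6*, so the name is uncertain. Its *Sox12* level, 41.9 CPM, lay beside the 43.4 and 42.9 CPM of the other classes.

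At E13.5 the same class held 927 CPM of *Sox4* and 827 CPM of *Sox11*, and the mitotic-like class 627 and 630 CPM. The highest *Sox4* level of this library, 1078 CPM, was in an unnamed cluster of 989 cells led by *Stmn2*, *Fam159a* and *Crtac1*, in which *Sox11* was at 632 CPM. *Stmn2* is best known from neurons, and it is 1 of 4 neuronal markers, whose summed level was 81.5 CPM at E13.5 against 5.52 to 52.1 CPM in the other sorted libraries. Their part in the *Sox4* peak of E13.5 was not tested. Within clusters that held cells of both stages, the step of *Sox4* from E12.5 to E13.5 took both signs. The log2 ratio was -0.07 in the perichondrial-like cluster (interval -0.12 to -0.02), -0.11 in the mitotic-like cluster led by *Ccnb1* (59 and 1114 cells, interval -0.25 to 0.03), -0.48 in the unnamed cluster led by *Gstp1* (179 and 2527 cells, interval -0.55 to -0.40) and 0.51 in the progenitor-like cluster led by *Gata2* (2590 and 52 cells, interval 0.35 to 0.66). The whole mitotic-like class had 0.12 (576 and 627 CPM), but most of its cells were in different clusters at the 2 stages.

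At E14.5 a distal mesenchyme-like class (871 cells), which expresses *Msx1* and *Hoxd13* of the limb tip and had no cells of earlier stages, was the highest named class for all 3 genes. *Sox4* was at 934 CPM in it, *Sox11* at 828 CPM and *Sox12* at 45.9 CPM. The mitotic-like class had 428, 392 and 32.0 CPM, the tenocyte-like class (3 of 7 tenocyte markers raised, led by *Pcp4*, *Mia* and *Grin2a*) 514, 287 and 23.6 CPM, and the dermal fibroblast-like class 299, 223 and 27.9 CPM. Between the highest and the lowest mesenchymal class of this library *Sox11* thus differed by more than *Sox12* did.

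**Figure D3:**
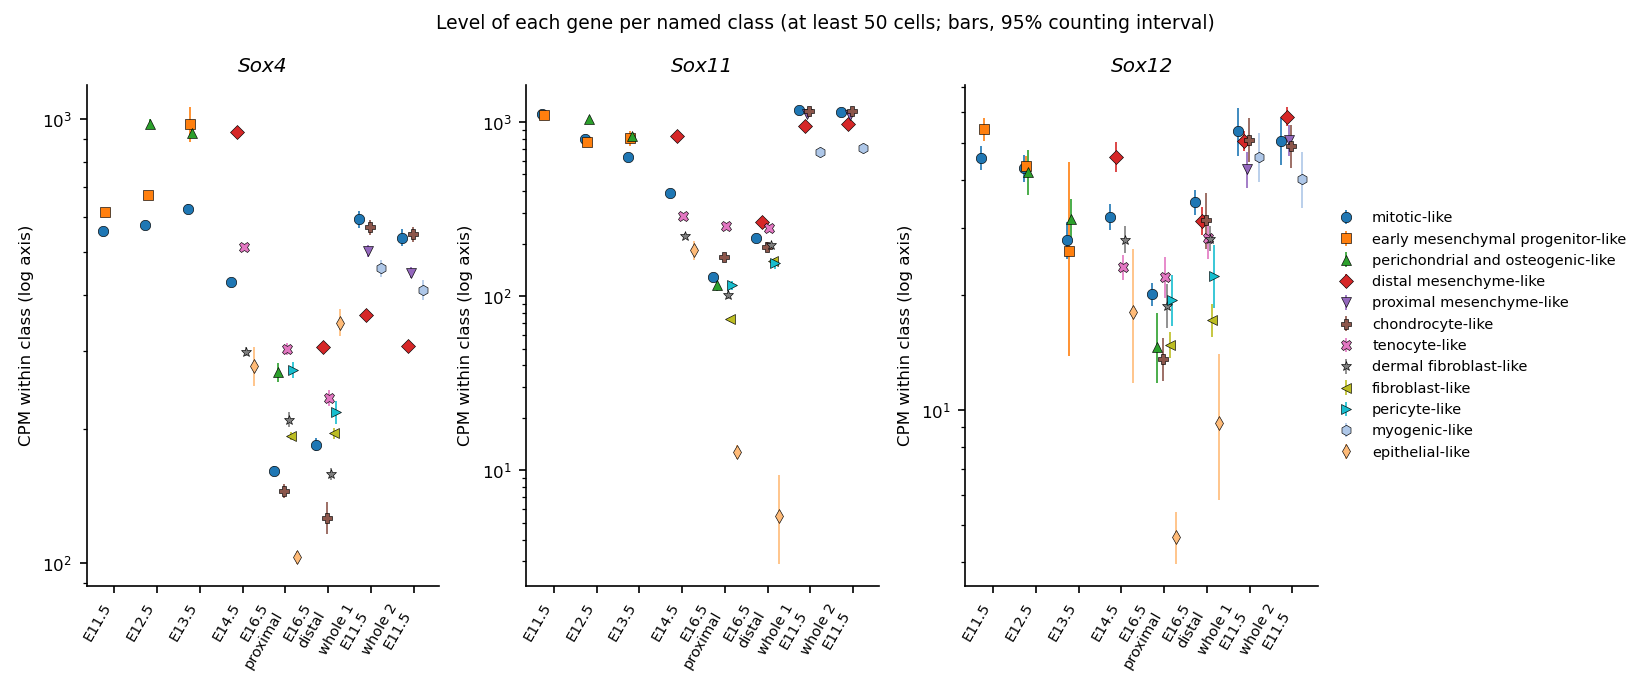
Level of each gene in CPM, on a log axis, in every named class of at least 50 cells, by library (E16.5 proximal and distal from the joint clustering of both segments), with 95% counting intervals. Cells of unnamed clusters, 57.4% at E13.5 and 40.8% at E14.5, are not shown. For *Sox11* the named classes lie close together until E13.5. The distal mesenchyme-like class of E14.5 (828 CPM) lies above the other named classes of that library, and the epithelial-like classes of E16.5 (12.7 and 5.47 CPM) lie far below the rest.

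At E16.5 proximal the tenocyte-like class, marked by *Scx* and *Tnmd* of tendon, was the highest of 8 named classes for all 3 genes at the resolution used, an order that changed with other settings. In the joint clustering of both segments it held 303 CPM of *Sox4*, 254 CPM of *Sox11* and 22.3 CPM of *Sox12*. For *Sox12*, counted with 268 UMIs there, the mitotic-like (20.05 CPM) and pericyte-like class (19.35 CPM) lay close, so its rank is uncertain. *Sox11* followed with 168 CPM in the chondrocyte-like, 129 in the mitotic-like, 116 in the pericyte-like and in the perichondrial-like, 102 in the dermal fibroblast-like and 73.8 CPM in the fibroblast-like class. *Sox4* kept another order, with 272 CPM in the pericyte-like, 268 in the perichondrial-like, 210 in the dermal fibroblast-like, 193 in the fibroblast-like, 161 in the mitotic-like and 145 CPM in the chondrocyte-like class. The chondrocyte-like class, with cartilage genes such as *Matn1*, was therefore second for *Sox11* and second to last for *Sox4*. At resolution 2 the chondrocyte-like class (687 cells) was last for *Sox4*, at 69.8 CPM, with 171 CPM of *Sox11*. Among 8238 genes that reached 10 CPM in either group, 3.34% were at least 2-fold higher in the tenocyte-like class than in the other cells of the library, *Sox11* as the only SoxC gene.

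The epithelial-like class was lowest in all 3 genes, at resolution 2 only in *Sox11* and *Sox12*, with 103 CPM of *Sox4* (156 CPM in thinned cells), 12.7 of *Sox11* (7.57 CPM without doublets) and 4.65 CPM of *Sox12*. *Sox11* and *Sox12* were at least 2-fold lower in it than in the other cells, which held for 35.3% of genes in this library. It was made of unlike clusters. The basal cluster (341 cells, *Krt14*, *Krt5* and *Krt15*) had the highest *Sox4* level of all clusters of the library, 371 CPM, with 28.2 CPM of *Sox11* and 15.99 CPM of *Sox12*. In the *Calm4* cluster the levels were 17.4, 7.81 and 1.03 CPM. At E16.5 distal the 66 epithelial-like cells had 347 CPM of *Sox4* (570.7 CPM in thinned cells) but 5.47 CPM of *Sox11* (interval 2.91 to 9.36) and 9.26 CPM of *Sox12*. There too *Sox11* and *Sox12* were at least 2-fold lower than in the other cells, where 29.6% of genes were.

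Classes of the same name at more than 1 stage were set side by side. Nearly all mesenchymal cells of E11.5, E14.5 and E16.5 proximal compared in this way lay in different clusters, so like names do not mean like cells. The mitotic-like class, with 1283 cells at E11.5 and 1033 at E16.5 proximal in the time-course clustering, went from 557 to 178 CPM of *Sox4* (log2 ratio -1.64, interval -1.69 to -1.59), from 1116 to 138 CPM of *Sox11* (-3.02, interval -3.07 to -2.97) and from 45.6 to 19.6 CPM of *Sox12* (-1.22, interval -1.38 to -1.06). In this class 28.7% of genes fell at least 2-fold, the 3 members included. Both sets of cells carry mitotic markers, whose summed level fell from 1629 to 728.3 CPM over the same libraries. Without the cells that had at least 3 mitotic markers the library ratios were -1.70, -3.46 and -1.81.

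From E14.5 to E16.5 proximal the *Sox11* ratio differed between class names. It was -1.51 on the log2 scale in the mitotic-like class (392 to 138 CPM), -1.39 in the dermal fibroblast-like class (223 to 84.8 CPM) and -0.32 in the tenocyte-like class (287 to 229 CPM, interval -0.38 to -0.27). The corresponding *Sox4* ratios were -1.26, -0.81 and -0.79, and those of *Sox12* were -0.71, -0.54 and -0.24. A fall of at least 2-fold was seen in 7.25% of genes in the mitotic-like class (*Sox4* and *Sox11*), in 7.44% in the dermal fibroblast-like class (*Sox11*) and in 6.11% in the tenocyte-like class, with no SoxC gene among them. Over all genes the median ratio of the tenocyte-like class was -0.18. The tenocyte-like cluster of E14.5 was led by *Pcp4* and *Mia* and that of E16.5 proximal by *Tnmd* and *Cilp*, so this comparison is between unlike cells. At resolution 2, where *Tnmd* led the tenocyte-like cluster of E14.5 (525 cells), *Sox4* went from 412 to 289 CPM and *Sox11* from 253 to 235 CPM. In epithelial-like cells *Sox11* went from 184 CPM at E14.5, where the class held 65 cells, to 12.5 CPM at E16.5 proximal.

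The segments of the E16.5 forelimb were set against each other next. All 3 genes were higher distally, *Sox4* by a log2 ratio of 0.23 (interval 0.21 to 0.25), *Sox11* by 0.84 (0.82 to 0.87) and *Sox12* by 0.77 (0.70 to 0.83), when the median of all genes was 0.12. None of them reached the 2-fold difference that 4.9% of genes showed. The distal library was counted with Cell Ranger 6.0.1 and the proximal one with 3.0.2, so segment and version cannot be told apart, here and in the clusters below. Without the non-mesenchymal clusters, of which the proximal library held 937 cells and the distal 66, the ratios were 0.11, 0.65 and 0.61. With TMM scaling they were 0.051, 0.66 and 0.59.

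Clusters with at least 50 cells in each segment allowed the same comparison within clusters. At resolution 2 the tenocyte-like and dermal fibroblast-like cells fell into several clusters that held the segments in different shares, so cells within a cluster can still differ. There were 11 clusters, and *Sox11* was higher distally, with an interval above 0, in 10 of them. The largest log2 ratio was 1.72, in the dermal fibroblast-like cluster led by *Hs3st6*, *Rspo1* and *Nrgn* (102 CPM in 833 proximal and 336 CPM in 152 distal cells). Next came 1.66 in the mitotic-like cluster led by the histone genes *Hist1h2ap*, *Hist1h1b* and *Hist1h2ab* (73.5 and 232 CPM), in which 9 dermal fibroblast markers were raised too. The exception was the tenocyte-like cluster, at 254 CPM proximally and 247 CPM distally (-0.04, interval -0.12 to 0.04). Over the 11 clusters the median of all genes lay between -0.02 and 0.16. The *Sox11* interval also held the median of its cluster in those led by *Wnt2* (0.02 to 0.42), *Rit2* (0.04 to 0.46) and *Dkk2* (0.02 to 0.35). The share of all genes with an interval above 0 was not counted, and all clusters come from the same pair of libraries.

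*Sox4* showed no common direction over the same clusters. It was higher distally in 6 and lower in 4 of the 11. It was highest distally in the *Hs3st6* cluster, with 213 CPM proximally and 387 CPM distally (log2 ratio 0.87, interval 0.75 to 0.98), although the whole dermal fibroblast-like class, with 1477 distal cells mostly in another cluster, was lower distally (210 and 158 CPM, -0.40, interval -0.48 to -0.33). It was lowest in the tenocyte-like cluster, with 303 and 235 CPM (-0.36, interval -0.44 to -0.29). In the pericyte-like cluster it was at 272 and 218 CPM (-0.32, interval -0.42 to -0.21), where *Sox11* was at 116 and 154 CPM (0.42, interval 0.28 to 0.55). *Sox12* was higher distally in 7 clusters and lower in 1.

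**Figure D4:**
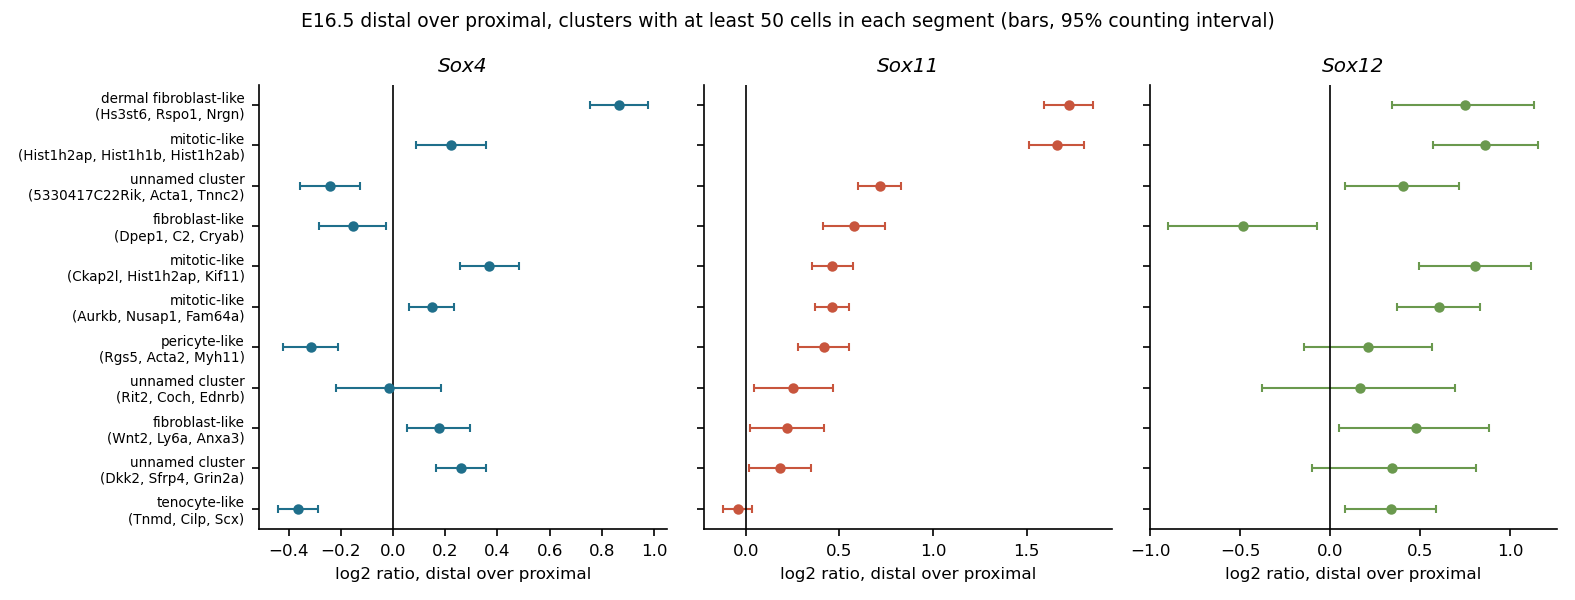
Log2 ratio of E16.5 distal over proximal for each gene in the 11 clusters with at least 50 cells in each segment, ordered by *Sox11*, with 95% counting intervals and a line at 0. *Sox11* lies right of the line in all clusters but the tenocyte-like one, whereas *Sox4* points lie on both sides, from -0.36 to 0.87.

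Taken by named class, *Sox4* was higher distally in 2 of 7 classes (epithelial-like 1.75 and mitotic-like 0.19) and lower in 4 (dermal fibroblast-like, tenocyte-like, pericyte-like and chondrocyte-like, the last at -0.20). The epithelial-like class was mixed differently in the segments. It held 341 proximal and 40 distal cells of the basal cluster, which was high in *Sox4*, and 601 and 26 of the *Calm4* cluster, which was low. The chondrocyte-like cells had 13.6 CPM of *Sox12* proximally and 31.3 CPM distally (log2 ratio 1.21, interval 0.90 to 1.51), a difference of at least 2-fold that 6.46% of genes reached there. The fibroblast-like cells had 73.8 and 159 CPM of *Sox11* (1.10, interval 1.04 to 1.17), which 4.69% of genes reached. Different clusters held most cells of these classes in the 2 segments. Fibroblast-like cells were mostly in the cluster of *Wnt2*, *Ly6a* and *Anxa3* proximally (1805 cells) and in that of *Cldn3*, *Pi16* and *Olfml2a* distally (642 cells), and chondrocyte-like cells in that of *Matn1* proximally (977 cells) and that of *Cytl1* distally (204 cells). Within the *Wnt2* cluster itself *Sox11* was at 75.0 and 87.5 CPM, a log2 ratio of 0.22 (interval 0.02 to 0.42). A distal mesenchyme-like cluster, in which more perichondrial (5) than distal mesenchyme markers (4) were raised, held 1255 distal and 5 proximal cells. The distal cells had 306 CPM of *Sox4*, 268 of *Sox11* and 31.2 CPM of *Sox12*, the highest *Sox11* level of the named classes of their library, which was that of the dermal fibroblast-like class (258.7 CPM) at resolution 2.

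The last comparison asked whether tdTomato+ cells of E11.5 differed from mesenchymal cells of the whole limb of that age. The study found tdTomato+ cells of this age mostly in the proximal part of the limb. The whole limb sums included 2044 (whole 1) and 1987 (whole 2) distal mesenchyme-like cells. Position was thus not matched, here and in the gene lists below, and sort and position cannot be told apart. UMIs were summed over mesenchymal cells and the sorted library was tested against whole 1 and whole 2 in edgeR (quasi-likelihood test). An adjusted p of 0.05 was passed by 8031 of 15065 genes, 53.3% of those tested, and 15.7% did so with a log2 fold change of at least 1 in size. No SoxC gene passed. *Sox4* was at 586 CPM in the sorted and 464 and 416 CPM in the whole limb libraries, above both (log2 fold change 0.24, SE 0.11, adjusted p = 0.0646, edgeR). *Sox11* was at 1111 CPM against 1037 and 1060 CPM (-0.10, SE 0.13, adjusted p = 0.542, edgeR). *Sox12* was at 49.96 CPM, between 48.7 and 54.8 CPM (-0.23, SE 0.11, adjusted p = 0.0542, edgeR).

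The fitted fold changes of the members are lower than the ratios of these CPM values, since TMM gives the sorted library a larger factor than the whole limb libraries (1.11 against 0.981 and 0.959 in the scaling of all 8 libraries). Over 6 alternative settings of the test, the adjusted p ran from 0.0435 to 0.18 for *Sox4*, from 0.35 to 0.799 for *Sox11* and from 0.0412 to 0.236 for *Sox12*, so that the outcome for *Sox4* and *Sox12* rested on the setting. The test had 1 residual degree of freedom, and the lone sorted library was taken to vary like the other 2. Nothing in the labels says that whole 1 and whole 2 came from separate animals, so the spread may be technical.

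Within the whole limb libraries *Sox4* differed between regions, and both libraries gave the same picture. In distal mesenchyme-like cells, which express *Hoxd13* and *Lhx2* of the outgrowing tip, it was at 362 CPM in whole 1 and 308 CPM in whole 2. In proximal mesenchyme-like cells, marked by *Pax1* and *Irx3*, it was at 504 and 450 CPM, in chondrocyte-like cells at 570 and 550 CPM and in mitotic-like cells at 593 and 539 CPM. The mitotic-like name covers a single cluster here (405 and 452 cells), led by *Lect1* and *Foxc1* and with 3 chondrocyte markers raised, whereas 54.8% and 54.5% of the whole limb cells had at least 3 mitotic markers. Distal mesenchyme-like cells were thus lowest in *Sox4* of the 5 named classes in both libraries. At E14.5, by contrast, the sorted cells of this name had the highest *Sox4* level of their library (934 CPM). This is a comparison of clusters from separate clusterings, stages and sorts, and its parts cannot be told apart.

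*Sox11* followed another pattern in these libraries. Myogenic-like cells, which express *Myog* and *Myod1* of muscle precursors, had the lowest level, 673 and 706 CPM, with 946 and 970 CPM in distal mesenchyme-like, 1115 and 1101 CPM in proximal mesenchyme-like, 1154 and 1160 CPM in chondrocyte-like and 1177 and 1139 CPM in mitotic-like cells. *Sox4* stood at 460 and 411 CPM in the myogenic-like cells, above the distal mesenchyme-like ones. For *Sox12* the classes spanned 42.6 to 53.6 CPM in whole 1 and 40.1 to 58.5 CPM in whole 2, and their order differed between the libraries. Proximal mesenchyme-like cells were lowest in whole 1 (42.6 CPM) but not in whole 2 (50.7 CPM).

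**Figure D5:**
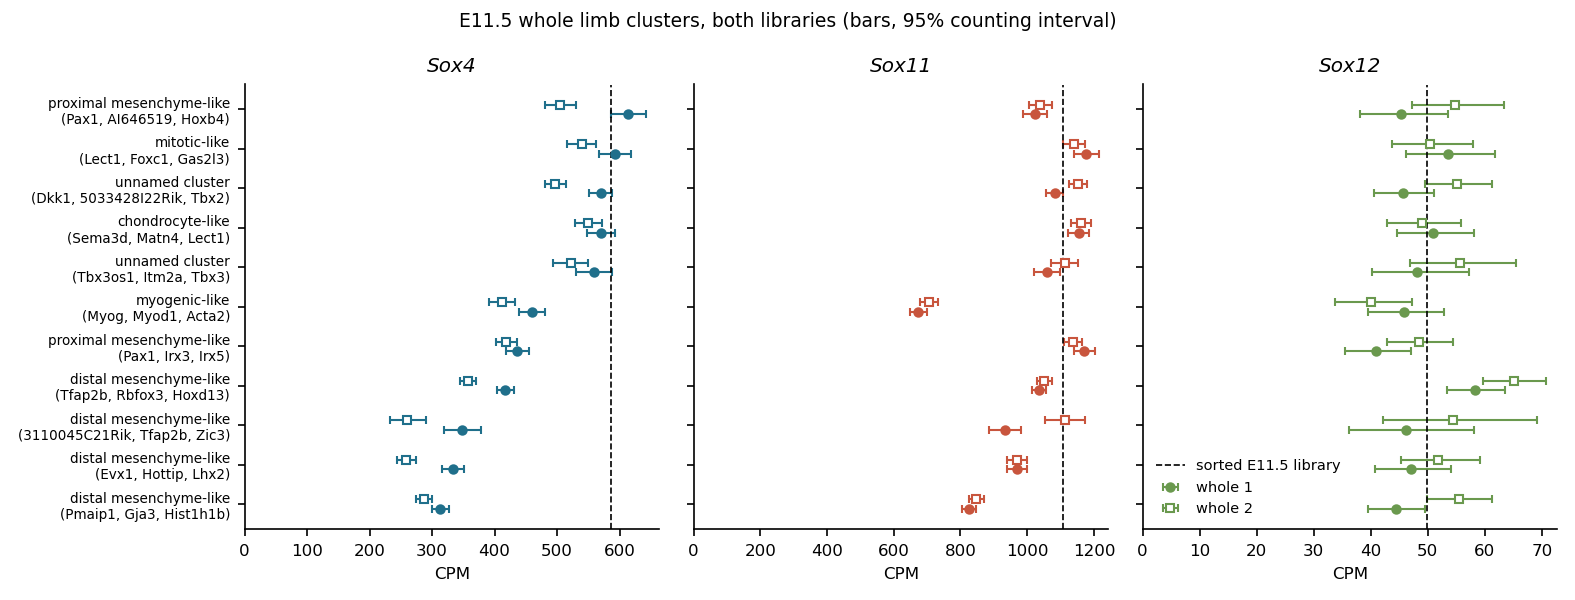
Level of each gene in CPM in the clusters of the E11.5 whole limb, in whole 1 (filled circles) and whole 2 (open squares), ordered by *Sox4* in whole 1, with 95% counting intervals and the level of the sorted E11.5 library as a dashed line. All distal mesenchyme-like clusters lie left of the dashed *Sox4* line (586.3 CPM) in both libraries, as do the chondrocyte-like, the myogenic-like and the unnamed clusters. The myogenic-like cluster is the lowest for *Sox11* (673 and 706 CPM).

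The other Sox genes were followed for comparison, 16 in all. From E11.5 to E16.5 proximal, 4 of them reached 10 CPM in either library, and all 4 fell at least 2-fold, against 30.3% of all genes. *Sox9*, the factor that sets up cartilage, went from 339 to 124 CPM (log2 ratio -1.45), and its SoxD partners *Sox5* and *Sox6* from 49.7 to 18.4 CPM (-1.43) and from 52.4 to 12.9 CPM (-2.03). *Sox8* was at 15.2 and 6.68 CPM (-1.19). Their median was -1.44, against -0.52 over all genes, and *Sox11* fell further than any of them. In the E11.5 test, 4 of the 11 other Sox genes tested were higher in the sorted cells, 3 lower and 4 did not pass, where 26.8% of all genes tested were higher and 26.5% lower. *Sox8* was higher (15.2 CPM against 5.76 and 5.39, log2 fold change 1.27, adjusted p = 1.76e-15, edgeR). The others past a log2 fold change of 1 were at low levels, *Sox30* higher (1.52) with 0.734 CPM against 0.129 and 0.318, *Sox17* lower (-1.34) with 0.255 CPM against 0.536 and 0.615, and *Sox2* with 0 UMIs in the sorted library and 0.343 and 0.170 CPM in whole 1 and whole 2.

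Genes described as SoxC targets or partners numbered 8. Of the 5 at 10 CPM or more, 4 fell at least 2-fold from E11.5 to E16.5 proximal, as 30.3% of all genes did. *Tead2*, a DNA-binding partner of the Yap coactivator, went from 353 to 65.5 CPM (log2 ratio -2.43), the methyltransferase gene *Ezh2* from 319 to 76.2 CPM (-2.07), *Dcx*, a microtubule protein of migrating neurons, from 10.9 to 2.57 CPM (-2.09), and the joint gene *Gdf5* from 12.4 to 5.87 CPM (-1.08). *Tead2* also fell at each step between, with 289 (E12.5), 232 (E13.5) and 143 CPM (E14.5). In the E11.5 test 2 of the 8 were higher, 3 lower (26.8% and 26.5% of all genes) and 3 not past the threshold, *Tead2* among the last (353 CPM against 310 and 324, adjusted p = 0.872, edgeR). *Gdf5* (12.5 CPM against 4.09 and 3.82, log2 fold change 1.47) and *Pou3f2* (1.75, at 0.415 CPM against 0.0857 and 0.127) were higher, and *Tubb3* (3.13 CPM against 6.45 and 8.17, -1.41) was lower in the sorted cells.

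Of 9 genes listed for canonical Wnt signalling, 6 were at 10 CPM or more. From E11.5 to E16.5 proximal 3 of the 6 fell at least 2-fold, as 30.3% of all genes did. These were *Tcf7l2* from 688 to 151 CPM (log2 ratio -2.19), *Nkd2* from 44.6 to 11.3 CPM (-1.98) and *Lef1* from 28.3 to 10.4 CPM (-1.44). The other 3 did not, *Axin2* with 12.1 and 11.8 CPM (-0.04), *Nkd1* at -0.53 and *Tcf7l1* at -0.82. The median of the 6 was -1.13. At E11.5, 7 of the 9 were lower and 1 higher in the sorted cells than in the whole limb, where 26.5% of all genes tested were lower and 26.8% higher. Position in the limb was not matched in this comparison. *Lef1* was at 28.1 CPM against 93.9 and 93.1 (log2 fold change -1.91), *Axin2* at 12.1 CPM against 46.0 and 42.4 (-2.05), and *Notum* at 0.639 CPM against 4.20 and 4.52 (-2.95). *Tcf7* (-1.90), *Nkd1* (-1.69) and *Sp5* (-2.995, with at most 0.429 CPM in these libraries) were lower as well. *Tcf7l2*, the exception, was at 691 CPM in the sorted and 181 and 207 CPM in the whole limb libraries (1.65, adjusted p = 2.48e-54, edgeR).

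Tead and Yap genes made up the last list, 8 in number. Of the 7 at 10 CPM or more, 3 fell at least 2-fold from E11.5 to E16.5 proximal, near the 30.3% of all genes. Beside *Tead2*, *Yap1* went from 107 to 33.4 CPM (log2 ratio -1.68) and *Cyr61*, a secreted protein whose gene Yap activates, from 450 to 56.5 CPM (-2.99). *Tead1* and *Wwtr1* did not fall 2-fold, with 67.1 and 57.6 CPM and with 74.5 and 121 CPM. At E11.5 3 of the 8 genes were higher in the sorted cells and none lower in the edgeR test (26.8% and 26.5% of all genes), *Tead4* by a log2 fold change of 1.93 (1.66 CPM against 0.429 and 0.339), *Tead3* by 0.90 and *Wwtr1* by 0.24.

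Genes with the most similar patterns were sought over 52 library-by-class groups among 4626 genes at 50 CPM or more in some library. For *Sox4* they were *Wbp1* (Pearson r of log2(CPM + 1) 0.91), *Plppr3* (0.89), *Nipsnap1* (0.89), 1110038F14Rik (0.88) and *Med25* (0.88). For *Sox11* they were *Brd3*, *Gpsm1*, *Tnrc6a*, *Cspp1* and *Trp53bp1*, each at 0.94. For *Sox12* they were *Pogz* (0.93), *Trp53bp1* (0.92), *Zfp326* (0.92), *Tnrc6a* (0.92) and *Mex3a* (0.92). *Tnrc6a*, which encodes a protein of microRNA silencing, and *Trp53bp1*, which encodes one of the DNA damage response, were in the lists of both *Sox11* and *Sox12*. Among the members r was 0.91 between *Sox11* and *Sox12*, 0.70 between *Sox4* and *Sox11* and 0.62 between *Sox4* and *Sox12*. The groups share libraries, kits and depth, so these values are descriptions only.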

How the data were processed

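The authors deposited unnormalized UMI counts of genes in cells, from the Cell Ranger count pipeline run on a modified mm10 reference. Per the file headers, 5 sorted libraries were counted with version 3.0.2 and E16.5 distal with 6.0.1, and no version is named in the whole 1 and whole 2 files. Groups came from the labels.

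*Sox4*, *Sox11*, *Sox12* and the gene lists were chosen with earlier results of these data known. Cells needed at least 3000 UMIs (the study's filter) with no more than 10% of them mitochondrial. The study also removed cells rich in mitochondrial RNA but names no cut, so the 10% was set here. Levels are UMIs summed over cells, per 1000000 (CPM), with exact Poisson intervals, and shares have exact Clopper-Pearson intervals after each cell was thinned to 3000 UMIs. Filtered libraries held 31500092 to 234893903 UMIs. Fold criteria used genes that reached 10 CPM in either library.

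Separate clusterings were made of the time course, both E16.5 libraries and all E11.5 libraries (2000 variable genes, 50 components, 25 neighbours, Leiden resolution 1, scanpy 1.11.5, leidenalg 0.10.2) without the members, Hox, mitochondrial, sex-linked and transgene features. Clusters were named from at least 3 raised markers of a class, unless another class had more markers in their top 10 genes. The next class that passed was then used, and clusters led by muscle fibre genes stayed unnamed, both rules added after the clusters had been seen. Scrublet's own threshold marked too few cells, so the highest scores were removed at 0.8% per 1000 barcodes in an alternative chosen after seeing the data.

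Sorted E11.5 was tested against whole limb on counts summed over mesenchymal cells with edgeR 4.0.16 (R 4.3.3, TMM scaling, quasi-likelihood test, two-sided, Benjamini-Hochberg adjustment at 0.05), and with DESeq2 1.42.0 and limma-voom (limma 3.58.1) as alternatives. Tested on simulated data of this comparison (15065 genes, 200 changed 4-fold), edgeR recovered 175 with 8 false calls, DESeq2 145 with 1 and limma-voom 178 with 12. The simulated sorted library was given the same spread as the whole limb ones, so this cannot check that assumption. Far fewer genes were changed than the real test called, so these false calls do not carry over to it. For each member, the 5 genes with the highest Pearson r over classes are named. From each list, those past the test with a log2 fold change of at least 1 and at most 4 that changed at least 2-fold between E11.5 and E16.5 proximal are named, beside a few of its members chosen after their values were seen.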

Additional observations from a re-analysis of the deposited data

Results flagged for a closer look

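At E16.5, *Sox4* and *Sox12* moved in opposite directions between the segments in different clusters. The distal over proximal log2 ratio of *Sox4* was 0.87 in the dermal fibroblast-like cluster led by *Hs3st6*, *Rspo1* and *Nrgn* and -0.36 in the tenocyte-like cluster led by *Tnmd*, *Cilp* and *Scx*. That of *Sox12* was 0.86 in the mitotic-like cluster led by *Hist1h2ap*, *Hist1h1b* and *Hist1h2ab* and -0.48 in the fibroblast-like cluster led by *Dpep1*, *C2* and *Cryab*. The whole dermal fibroblast-like class, most of whose 1477 distal cells were in another cluster, went the other way for *Sox4* (-0.40, 210 to 158 CPM). With 1 library per segment, these differences between clusters were not tested. They are the extremes of 11 clusters for each gene.

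In the *Hs3st6* cluster at 3000 UMIs *Sox4* had a UMI in 35.2% of the 833 proximal and 41.4% of the 152 distal cells, whereas the level went from 213 to 387 CPM. The *Sox12* value of the *Dpep1* cluster rests on 16.3 CPM in 351 proximal and 11.7 CPM in 374 distal cells. At resolution 2 the cluster led by *Dpep1* was named dermal fibroblast-like and held 335 proximal and 9 distal cells. The name is thus uncertain, and the value may compare unlike cells.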

How the results depend on the processing

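No paired analysis was possible because the sorted libraries carry no replicate number. Of 18 log2 ratios between libraries, 17 kept their sign under every alternative run, and the exception was *Sox12* from E13.5 to E14.5 (-0.04), which became 0.18 with TMM scaling and 0.009 with every cell thinned to 3000 UMIs. The values below moved by more than their counting interval. The cause was not tested.

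With TMM scaling the ratios were 0.11 (*Sox4*) and -0.36 (*Sox11*) from E12.5 to E13.5, and -0.44 (*Sox4*) and -0.73 (*Sox11*) from E13.5 to E14.5. For *Sox4*, *Sox11* and *Sox12* in turn they were -1.16, -1.45 and -0.70 from E14.5 to E16.5 proximal, -1.23, -3.0003 and -1.23 from E11.5 to E16.5 proximal, and 0.051, 0.66 and 0.59 for distal over proximal. Without non-mesenchymal clusters these last 3 comparisons gave -1.30, -1.49 and -0.78, then -1.54, -3.21 and -1.48, then 0.11, 0.65 and 0.61, and the log2 ratio of the highest over the lowest sorted library was 1.95, 3.21 and 1.48 (thinned, *Sox4* 2.01).

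Without cells of 3 mitotic markers *Sox4* was at 0.27 (E11.5 to E12.5), -1.45 (E14.5 to E16.5 proximal), -1.70 (E11.5 to E16.5 proximal) and 0.26 (distal over proximal). *Sox11* was at -0.98 (E13.5 to E14.5), -1.73, -3.46 and 0.87, and *Sox12* at -1.81 from E11.5 to E16.5 proximal. With cells thinned to 3000 UMIs *Sox4* was at 0.28 and *Sox11* at -0.50 from E11.5 to E12.5, -0.64 and -0.92 from E13.5 to E14.5, and 0.15 and 0.79 distal over proximal. From E14.5 to E16.5 proximal the thinned ratios were -1.36, -1.74 and -1.02, and *Sox4* was at -1.57 from E11.5.

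Other alternatives were chosen after seeing the data. The mean of both E16.5 segments gave -1.28, -1.21 and -0.51 over E14.5 and -1.53, -2.94 and -1.22 over E11.5. Leaving out the distal mesenchyme-like cells of E14.5 gave -1.29 (*Sox4*) and -1.51 (*Sox11*). Removing doublets left all 18 ratios within their intervals.

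In the E11.5 test *Sox4* passed when all filtered cells were summed (0.26, adjusted p = 0.0435, edgeR), and *Sox12* passed with relative log expression scaling (-0.25, adjusted p = 0.0412, edgeR). Genes called numbered 8031, with 4365 when no low counts were filtered and 4831 with DESeq2. With 1 whole limb library left out, a value with no test, the log2 fold change was 0.16 to 0.30 for *Sox4*, -0.13 to -0.08 for *Sox11* and -0.33 to -0.14 for *Sox12*.

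The log2 ratio of the highest over the lowest class at E16.5 proximal was 1.56 (*Sox4*), 4.32 (*Sox11*) and 2.26 (*Sox12*). It became 2.50, 4.71 and 3.27 at resolution 2, 4.04 for *Sox11* in cells with 3 markers, 1.69 (*Sox4*) and 5.17 (*Sox11*) without doublets, and 0.94 (*Sox4*) and 1.70 (*Sox12*) in thinned cells. The highest class there, tenocyte-like, became the distal mesenchyme-like one for all 3 genes at resolution 2 (51 cells, 395.1, 333.2 and 44.78 CPM), the pericyte-like one for *Sox4* and *Sox12* with 3 markers, and the mitotic-like one for *Sox12* in thinned cells. The lowest, epithelial-like, became the chondrocyte-like one for *Sox4* at resolution 2. Of 138 levels of classes, 68 moved beyond their interval in thinned cells. At E16.5 distal the ratio was 1.46, 5.61 and 1.92. There *Sox4* took 0.89 at resolution 2, 1.11 with 3 markers, 1.72 without doublets and 2.10 in thinned cells, *Sox11* 4.74 with 3 markers and *Sox12* 1.24 in thinned cells. Unthinned, the shares of cells with a UMI differed from E16.5 proximal by 14.2 percentage points at E13.5 (*Sox4*) and by 39.9 (*Sox11*) and 11.3 points (*Sox12*) at E11.5. The depth limits *Sox12* most, since 4.56% to 15.1% of thinned cells held a UMI of it.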
